A study of Ovis aries with 8 samples.

Results

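The tricarboxylic acid cycle enzymes described here are the 9 genes CS, IDH2, IDH3A, OGDH, DLD, SUCLG1, FH, MDH1 and MDH2, picked by symbol as named enzymes of the cycle from a table of 27057 rows. Each of the 9 symbols stood on 1 row, and all 9 genes passed the filter on low values, among 13141 genes tested. Cultured hepatocytes of fetal sheep (Ovis aries) were treated with metformin, an antidiabetic biguanide, for 24 h, and their polyadenylated RNA was sequenced. Of the 8 libraries, 4 came from metformin-treated cells and 4 from basal cells, with 1 library of each kind for each of 4 numbered hepatocyte preparations. The sources used here state neither the dose, nor a vehicle in the basal cultures, nor whether each preparation came from a separate animal, so the p-values measure the spread between these preparations. No genotype, transgene or other agent was recorded for either group.

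The cycle runs in the mitochondrial matrix. Citrate synthase joins acetyl-CoA to oxaloacetate, later steps release carbon dioxide and hand electrons to the respiratory chain, and malate dehydrogenase restores oxaloacetate. In liver the cycle also supplies intermediates for glucose and lipid synthesis and takes up the carbon of amino acids. Several steps have relatives outside the matrix, among them the cytosolic malate dehydrogenase encoded by MDH1. Metformin is known to act on mitochondrial respiration, to which the cycle hands its electrons.

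Expression was given as FPKM, the fragments of a gene divided by the length of its transcript and by the size of the library, so levels of different genes can be set side by side per length, while read depth is unknown. Summed over all rows, FPKM came to between 1138642 and 1257764 in metformin libraries and to between 1024543 and 1197321 in basal libraries. The basal library of preparation 2 had the lowest sum. Genes reaching an FPKM of 1 numbered 12733 to 13128 in metformin libraries and 13082 to 13293 in basal libraries. All 10 hepatocyte markers examined were above 0 in every library, with ALB, the gene of serum albumin, at 573.9 to 3347 FPKM over the 8 libraries. Of these 10 markers 6 fell and 1 rose with metformin, and their summed level was 10879 to 26735 FPKM in metformin libraries, against 20357 to 32169 FPKM in basal libraries. At an adjusted p under 0.05 in the limma fit, the rule used for all marker counts here, 19.8% of all genes tested rose and 24.1% fell. Markers of other liver cells were also present. Of 10 stellate and fibroblast markers 8 fell, with sums of 730.1 to 1988 FPKM in metformin libraries and 1707 to 3470 FPKM in basal libraries. Among 9 endothelial markers tested 4 fell, with list sums of 97.8 to 331.9 FPKM in metformin libraries and 124.7 to 461.6 FPKM in basal libraries. Macrophage markers had 5 of 10 fall and 1 rise, with sums of 1475 to 2557 FPKM in metformin libraries and 1367 to 2790 FPKM in basal libraries. Cholangiocyte markers had 3 of 7 tested fall and 1 rise, with list sums of 1440 to 4416 FPKM in metformin libraries and 1606 to 8931 FPKM in basal libraries. Most of these sums came from SPP1, which had 1176 to 8648 FPKM over the 8 libraries and did not pass. None of 6 erythroid markers changed at an adjusted p under 0.05 in the limma fit, though 2 had an unadjusted p under 0.05, and their sums were 48.6 to 122.6 FPKM in metformin libraries and 55.7 to 124.1 FPKM in basal libraries. The part of cell makeup in the values below was not tested, and in bulk RNA fewer cells of a type and less RNA per cell cannot be told apart.

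The question here was whether transcripts of the cycle enzymes differed after 24 h with metformin. Of the 9 genes, 1 rose (DLD) and 0 fell at an adjusted p under 0.05. Over all genes tested the same rule called 43.9%, with 19.8% higher and 24.1% lower. The log2 changes of the 9 genes ran from -0.07 for MDH2 to 0.42 for DLD, with a median of 0.18, against a median of -0.04 over all genes tested. A positive log2 change was found for 8 of the 9 genes, whereas 47.4% of all tested genes had one. In absolute size the median log2 change was 0.18 for the 9 genes and 0.35 for all genes tested. The 95% intervals of the 9 changes lay between -0.35 and 0.73, so that a change of 2-fold in either direction was outside the interval of each of them. These differences were tested with limma on log2(FPKM + 1), paired by preparation, with Benjamini-Hochberg adjustment over all 13141 genes, and log2 changes are on that scale throughout. The intervals are not adjusted for the number of genes.

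**Figure D1:**
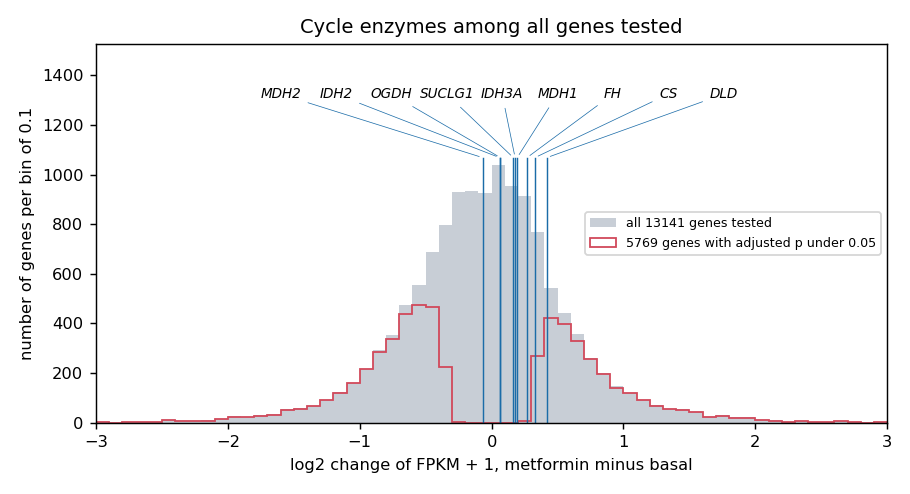
Number of genes per bin of 0.1 (vertical axis) against the log2 change of FPKM + 1, metformin minus basal (horizontal axis). Grey bars are all 13141 genes tested, the red outline is the 5769 genes with an adjusted p under 0.05, and blue lines mark the 9 cycle enzymes, which sit between -0.07 (MDH2) and 0.42 (DLD) in the middle of the distribution; 24 genes with changes beyond 3 in size are not drawn.

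In level, the 9 genes spanned from 280.6 FPKM for MDH2 to 14.6 FPKM for IDH3A as means over the 8 libraries. MDH2 stood above 96.2% of the genes tested and IDH3A above 43.7%. Between them the order was SUCLG1 (161.2 FPKM), MDH1 (122.7), FH (122.6), OGDH (91.9), CS (68.8), IDH2 (58.8) and DLD (48.7). MDH2 exceeded SUCLG1, SUCLG1 exceeded MDH1, FH exceeded OGDH, OGDH exceeded CS, and DLD exceeded IDH3A in all 8 libraries. The neighbours MDH1 and FH were not separated beyond their spread, with MDH1 the higher in 3 of 8 libraries. CS exceeded IDH2 in 6 of 8 libraries, in 4 metformin and 2 basal ones. IDH2 exceeded DLD in 6 of 8, in 3 of each group.

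**Figure D2:**
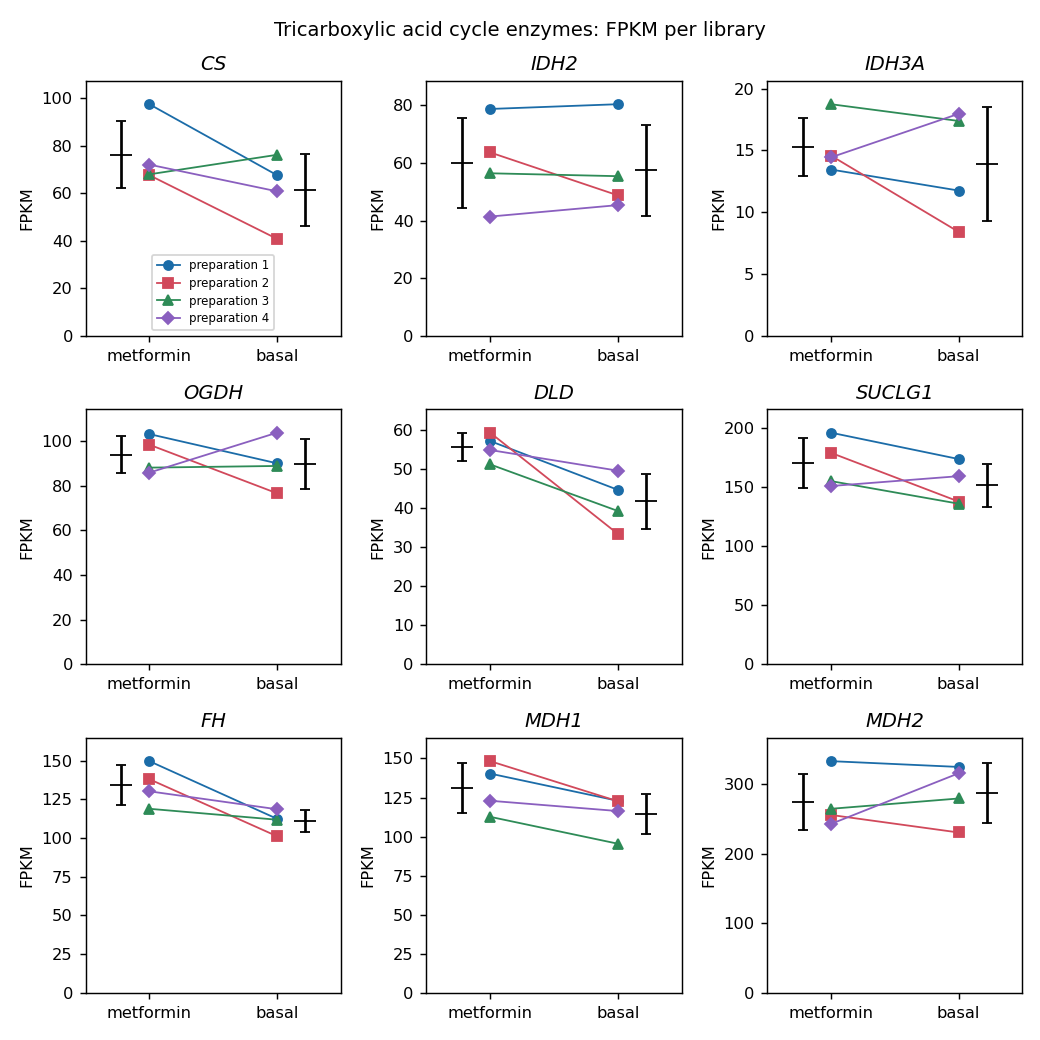
FPKM of the 9 cycle enzymes in each library (vertical axis, linear from 0 in each panel), with metformin left and basal right in each panel. Coloured points joined by a line are the metformin and basal libraries of one preparation, and black bars are the group mean and SD (n = 4 each). The metformin points of DLD and FH lie above all basal points, while MDH2 and OGDH overlap between the groups.

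CS encodes citrate synthase, which starts the cycle and is often used as a measure of mitochondrial content. It had 97.4, 67.6, 68.0 and 72.0 FPKM in the metformin libraries of preparations 1 to 4, against 67.6, 40.8, 76.2 and 60.8 FPKM in the basal libraries. CS was higher with metformin in preparations 1, 2 and 4 and lower in preparation 3, and the groups overlapped. It averaged 76.3 ± 14.3 FPKM in metformin libraries and 61.4 ± 15.1 FPKM in basal libraries (SD, n = 4 each), a log2 change of 0.33 ± 0.16 (SE) with a 95% interval from -0.04 to 0.70 that did not pass the test (adjusted p = 0.126). CS passed in 1 of 13 alternatives of processing or preparations left out. That was the one without preparation 3, the preparation that went the other way (log2 change 0.49, adjusted p = 0.0386). Over the alternatives the log2 change of CS ran from 0.20 to 0.49 and the adjusted p reached 0.351.

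Isocitrate is oxidised in the matrix by an NAD-linked enzyme, whose catalytic subunit IDH3A encodes, and by the NADP-linked enzyme IDH2. IDH3A had 13.5, 14.6, 18.7 and 14.4 FPKM in metformin libraries of preparations 1 to 4, against 11.8, 8.41, 17.4 and 18.0 FPKM in basal libraries. Its basal values spread the most among the 9 genes, with a coefficient of variation of 33.1%, against 15.3% in the metformin libraries. The log2 change was 0.18 ± 0.17 (interval -0.22 to 0.58, adjusted p = 0.417). IDH2 had 78.7, 63.7, 56.4 and 41.4 FPKM with metformin, against 80.4, 48.8, 55.4 and 45.4 FPKM in basal libraries. Preparation 1 was the highest and preparation 4 the lowest in both groups, and IDH2 was higher with metformin in 2 preparations and lower in the other 2. Its log2 change was 0.06 ± 0.12 (interval -0.22 to 0.34, adjusted p = 0.696). Per length, the level of IDH2 was 4.03 ± 1.39 times that of IDH3A in metformin libraries and 4.59 ± 2.06 times in basal libraries (SD, n = 4 each). This ratio was lower with metformin in 3 of 4 preparations and differed by less than its spread between preparations.

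The alpha-ketoglutarate dehydrogenase complex is built from OGDH, which decarboxylates the substrate, DLST, which carries the lipoyl arm, and DLD, which reoxidises that arm and passes electrons to NAD. DLD had 57.1, 59.3, 51.2 and 54.8 FPKM in the metformin libraries of preparations 1 to 4, against 44.7, 33.4, 39.2 and 49.5 FPKM in basal libraries. Every metformin library was above every basal library, which held for 13.3% of all genes tested. DLD rose to a mean of 55.6 ± 3.47 FPKM in metformin libraries, against 41.7 ± 6.96 FPKM in basal libraries, a ratio of means of 1.33. Its log2 change was 0.42 ± 0.13 (interval 0.11 to 0.73, adjusted p = 0.0390, higher in 4 of 4 preparations). By preparation the log2 changes of DLD were 0.35, 0.81, 0.37 and 0.14, with the largest in preparation 2. Leaving out preparation 1, 2 or 3 ended the call of DLD (adjusted p = 0.0991, 0.103 and 0.0815), and the log2 change was 0.29 once preparation 2 was left out. Without the pairing block the adjusted p was 0.0734.

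OGDH had 103.1, 98.4, 88.1 and 85.9 FPKM in metformin libraries, against 90.1, 76.6, 88.9 and 103.8 FPKM in basal libraries. The metformin values lay inside the range of the basal values, with OGDH higher in preparations 1 and 2 and lower in preparations 3 and 4. Its log2 change was 0.07 ± 0.13 (interval -0.24 to 0.37, adjusted p = 0.693). DLST, which was not among the 9 genes, averaged 95.3 ± 9.56 FPKM with metformin and 86.4 ± 9.16 FPKM in basal libraries, a log2 change of 0.14 that did not pass the test (adjusted p = 0.367). Per length, the level of DLD relative to OGDH was 0.554, 0.602, 0.581 and 0.639 in metformin libraries, against 0.496, 0.436, 0.442 and 0.478 in basal libraries, with no overlap. This ratio was higher with metformin in 4 of 4 preparations. An exact sign-flip permutation test over 4 pairs cannot give a 2-sided p below 1 in 8, so no call is made on it.

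SUCLG1 encodes the alpha subunit of succinyl-CoA ligase, which is shared by the enzyme forms that make ATP and GTP. It had 196.3, 179.2, 155.3 and 151.1 FPKM in metformin libraries, against 174.0, 138.0, 136.2 and 159.5 FPKM in basal libraries. It was higher with metformin in 3 of 4 preparations, the exception being preparation 4, and the groups overlapped. The log2 change was 0.16 ± 0.11 (interval -0.10 to 0.43, adjusted p = 0.262). Its partner subunits, outside the 9 genes, had log2 changes of -0.12 for SUCLA2 of the ATP form (adjusted p = 0.497) and -0.24 for SUCLG2 of the GTP form (adjusted p = 0.0988), neither of which passed. SUCLG2 was lower with metformin in each preparation. It passed in 1 of 13 alternatives, quantile normalization (log2 change -0.35, adjusted p = 0.0182).

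FH encodes fumarase, which hydrates fumarate to malate. It had 149.6, 138.0, 118.9 and 130.1 FPKM in metformin libraries, against 112.4, 101.2, 111.8 and 118.6 FPKM in basal libraries. The lowest metformin library was just above the highest basal library, so the groups did not overlap, and FH was higher in 4 of 4 preparations. FH averaged 134.1 ± 12.96 FPKM with metformin and 111.0 ± 7.23 FPKM in basal libraries. The log2 change of 0.27 ± 0.11 (interval 0.0041 to 0.53) did not pass after adjustment (adjusted p = 0.0897). FH passed in 1 of 13 alternatives, when libraries were rescaled by the median of ratios (log2 change 0.30, adjusted p = 0.0391). With quantile normalization the log2 change was 0.17 (adjusted p = 0.172), and over the alternatives the adjusted p reached 0.296.

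Malate is oxidised to oxaloacetate by MDH2 in the matrix and interconverted with it by MDH1 in the cytosol, the pair that carries reducing equivalents in the malate-aspartate shuttle. MDH2 had 332.8, 255.5, 264.4 and 242.6 FPKM in metformin libraries, against 324.5, 230.3, 279.2 and 315.4 FPKM in basal libraries. It was higher with metformin in preparations 1 and 2 and lower in preparations 3 and 4. Its log2 change was -0.07 ± 0.12 (interval -0.35 to 0.22, adjusted p = 0.666), the lowest of the 9. MDH1 had 140.3, 148.3, 112.6 and 122.9 FPKM with metformin, against 122.9, 122.6, 95.5 and 116.3 FPKM in basal libraries. MDH1 was higher in each preparation, although the groups overlapped, and its log2 changes of 0.19, 0.27, 0.24 and 0.08 spread least over preparations among the 9 genes (SD 0.08). The mean log2 change was 0.19 ± 0.10 (interval -0.04 to 0.43, adjusted p = 0.145). Per length, the level of MDH1 relative to MDH2 was 0.422, 0.580, 0.426 and 0.507 in metformin libraries, against 0.379, 0.532, 0.342 and 0.369 in basal libraries. This ratio of the cytosolic to the matrix enzyme was higher with metformin in 4 of 4 preparations while its groups overlapped, and the same limit of the exact test holds for it.

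**Figure D3:**
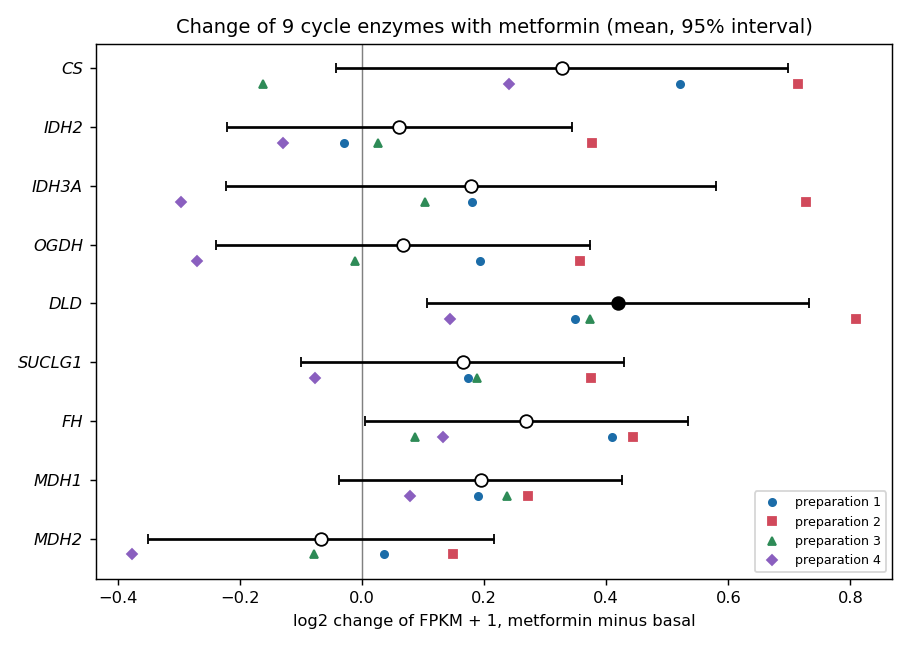
Log2 change of FPKM + 1, metformin minus basal (horizontal axis), for the 9 cycle enzymes in the order of the cycle. Circles are the limma estimates with 95% intervals, filled where the adjusted p was under 0.05 (DLD), and the small coloured symbols under each are the changes in the 4 preparations; preparation 2 is the rightmost symbol in each of the 9 rows and preparation 4 the leftmost in 7.

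Of the 9 genes 3 (DLD, FH and MDH1) were higher with metformin in all 4 preparations, as were 28% of all genes tested. For 2 of the 9 (DLD and FH) every metformin library was above every basal library, which held for 13.3% of all genes tested. The groups of the other members overlapped. The preparations differed in how the set behaved. With metformin 8 of 9 genes were higher in preparation 1, 9 in preparation 2, 6 in preparation 3 and 4 in preparation 4. The median log2 change of the 9 was 0.19, 0.38, 0.09 and -0.08 in that order, beside medians of -0.07, 0.07, -0.00186 and -0.13 over all genes tested. The change was largest in preparation 2 for each of the 9 genes, and smallest in preparation 4 for 7 of them and in preparation 3 for 2. The basal library of preparation 2 held the lowest of the 8 values for 6 of the 9 genes. That library also had the lowest scaling factor by the median of ratios, 0.904, where the others lay between 0.964 and 1.075. After rescaling by these factors, 9, 9, 6 and 6 of the 9 genes were higher with metformin in preparations 1 to 4, with median log2 changes of 0.27, 0.29, 0.10 and 0.07. Without preparation 2 the median of the 9 fitted changes was 0.09.

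The summed level of the 9 genes was 1169, 1025, 933.6 and 915.4 FPKM in metformin libraries, against 1028, 800.2, 899.7 and 987.2 FPKM in basal libraries. The sum averaged 1011 ± 116 FPKM with metformin and 928.8 ± 101 FPKM in basal libraries (SD, n = 4 each). It was higher in 3 of 4 preparations, and the mean difference of 81.8 FPKM was smaller than the SD of the 4 differences, 128.7 FPKM. As a share of the summed FPKM of all rows the 9 genes took 0.0728% to 0.103% in metformin libraries and 0.0781% to 0.0900% in basal libraries, with the share higher in 2 of 4 preparations.

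Across the 8 libraries the 9 genes tended to vary together, with positive Pearson correlations of log2(FPKM + 1) for 34 of 36 pairs and a median r of 0.56. The 8 points are pairs of libraries from 4 preparations and share the scaling to library totals, so r is given as a description. The highest r was 0.91 between FH and DLD, and the lowest was -0.36 between MDH1 and IDH3A. For each gene, the gene with the most similar pattern was sought among 11052 others with a symbol. For DLD it was COX6B1, a subunit of cytochrome c oxidase (r = 0.988), and for MDH2 it was PHB, the inner membrane protein prohibitin (r = 0.971). The others were NUP62 for CS (r = 0.972), CCL8 for IDH2 (0.982), SLC22A16 for IDH3A (0.984), NFE2L1 for OGDH (0.943), GNPNAT1 for SUCLG1 (0.965), AMMECR1 for FH (0.985) and CD2BP2 for MDH1 (0.973). Of these 9 genes AMMECR1 passed the test (log2 change 1.22, adjusted p = 0.00429). With so many candidates over 8 libraries, an r of this size is the highest of a large number.

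The authors' deposited table, which compares the same pairs gene by gene, put MDH1 and not DLD past 0.05. In the authors' deposited table MDH1 had a p of 0.0191 and an adjusted p of 0.0467, and DLD a p of 0.0581 and an adjusted p of 0.0897. FH had a p of 0.0616 and CS one of 0.183 in that table, and it gives no adjusted p for IDH2, IDH3A and OGDH. A gene-by-gene paired test on log2(FPKM + 1), with no sharing of variance between genes, returned the p-values of the authors' deposited table to within 1e-06 in 18823 of 18834 rows. The adjusted values in the authors' deposited table cover 7209 rows. When each gene's own variance was used and p-values were adjusted over the 13141 genes, neither gene passed, with adjusted p of 0.0697 for MDH1 and 0.123 for DLD. The gene of the 9 that passed therefore differed between the moderated fit and the authors' deposited table.

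The rest of the cycle was taken from a list of 13 genes. SDHD has no row matched here, and OGDHL and MDH1B were near 0 and below the filter, so 10 were tested. Of these 2 rose and 1 fell, or 30.0% called beside 43.9% over all genes tested, with a median log2 change of -0.019. IDH1, the cytosolic and peroxisomal NADP-linked isocitrate dehydrogenase, had 19.0, 17.8, 22.1 and 17.5 FPKM in metformin libraries, against 64.2, 52.6, 44.2 and 44.6 FPKM in basal libraries. The groups were far apart, and IDH1 fell by 1.37 ± 0.14 on the log2 scale (adjusted p = 0.00115, lower in 4 of 4 preparations), a call that held in all 13 alternatives. The matrix isocitrate dehydrogenase genes IDH2 and IDH3A, described above, and IDH3B and IDH3G, with log2 changes of -0.13 (adjusted p = 0.461) and 0.09 (adjusted p = 0.541), did not pass. ACO1, the cytosolic aconitase that doubles as an iron regulatory protein, had 88.0, 85.4, 84.3 and 79.8 FPKM with metformin, against 65.5, 66.8, 61.6 and 53.9 FPKM in basal libraries. ACO1 rose by 0.44 ± 0.10 on the log2 scale (adjusted p = 0.0118), a call that ended when preparation 1 was left out (adjusted p = 0.0553).

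Succinate dehydrogenase, which is also complex II of the respiratory chain, had 3 tested subunits. SDHB, the iron-sulphur subunit, had 41.9, 37.1, 34.3 and 38.4 FPKM with metformin, against 30.2, 21.8, 23.5 and 29.2 FPKM in basal libraries. Its groups did not overlap, and it rose by 0.53 ± 0.11 on the log2 scale (adjusted p = 0.00892), a call that ended when each gene's variance was used alone (adjusted p = 0.0501). The flavoprotein subunit SDHA had a log2 change of 0.09 (adjusted p = 0.495). The membrane anchor SDHC was lower in 4 of 4 preparations, at -0.29 with an interval from -0.55 to -0.02, and did not pass after adjustment (adjusted p = 0.0729). SDHC passed in 1 of 13 alternatives, quantile normalization (log2 change -0.38, adjusted p = 0.0212).

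**Figure D4:**
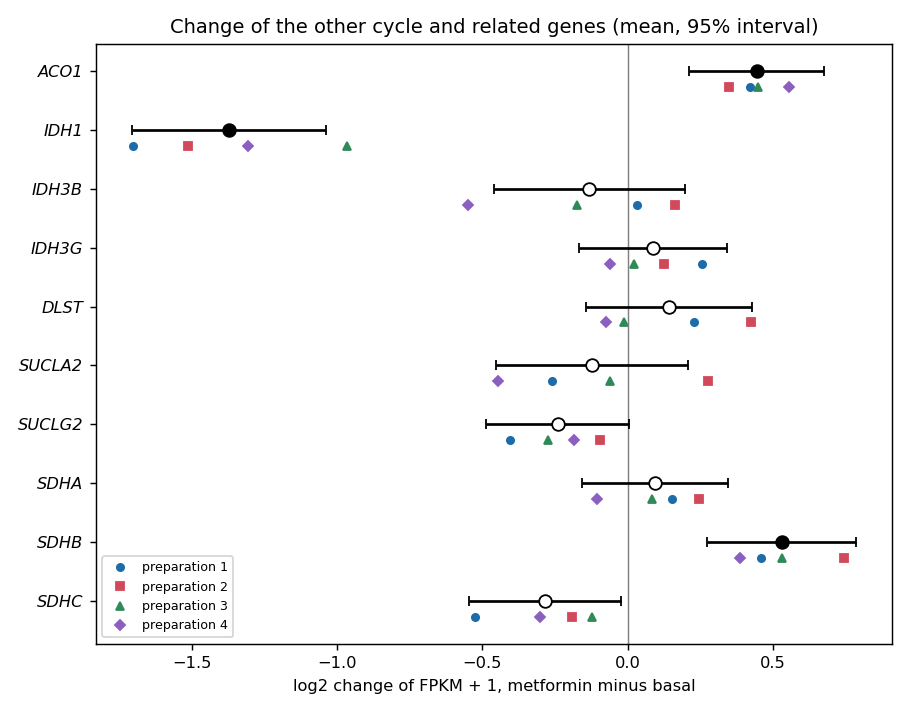
Log2 change of FPKM + 1, metformin minus basal (horizontal axis), for 10 other genes of the cycle and their relatives. Circles are limma estimates with 95% intervals, filled where the adjusted p was under 0.05 (ACO1 and SDHB to the right, IDH1 to the left at -1.37), and small symbols are the 4 preparations.

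Pyruvate enters the cycle through pyruvate dehydrogenase and pyruvate carboxylase. Of 14 listed genes of this entry PDHA1, PDHB and DLAT, which encode subunits of pyruvate dehydrogenase itself, have no row matched here. Of the 11 tested genes 2 rose and 4 fell, with a median log2 change of -0.14. That is 54.5% called, beside 43.9% over all genes tested. PDK4, a kinase that switches pyruvate dehydrogenase off, fell to 9.35 ± 6.51 FPKM with metformin, against 28.9 ± 15.04 FPKM in basal libraries (log2 change -1.61, adjusted p = 0.00158). PDP1, the phosphatase that switches it on, rose to 42.3 ± 13.2 FPKM, against 19.2 ± 8.79 FPKM (log2 change 1.155, adjusted p = 0.00201). PDHX, which anchors DLD in the pyruvate dehydrogenase complex, rose by 0.46 on the log2 scale (adjusted p = 0.0191), passing in 9 of 13 alternatives. PDK3 fell by 0.56 and PDPR, a regulatory subunit of the phosphatase, fell by 0.45 on the log2 scale, passing in 9 and 5 of 13. The kinase PDK2 had 49.5 ± 15.3 FPKM with metformin and 47.8 ± 11.9 FPKM in basal libraries (log2 change 0.04, adjusted p = 0.798). It did not pass, nor did the kinase PDK1 (-0.21, adjusted p = 0.374) or the phosphatase PDP2 (-0.14, adjusted p = 0.385). Pyruvate carboxylase, PC, was named after its values were seen and fell by 0.45 (adjusted p = 0.0285), passing in 6 of 13.

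Genes that fill or drain the cycle had 3 of 18 tested members rise and 5 fall, with a median log2 change of -0.20. The share called, 44.4%, is near the 43.9% over all genes tested. GLUD1, which turns glutamate into alpha-ketoglutarate, fell to 368.3 ± 86.8 FPKM with metformin, against 711.5 ± 148 FPKM in basal libraries (log2 change -0.96, adjusted p = 0.00144). The mitochondrial transhydrogenase NNT fell to 25.3 ± 1.73 FPKM, against 44.8 ± 10.3 FPKM (log2 change -0.78, adjusted p = 0.00543). Among partners of MDH1 in the malate-aspartate shuttle, the cytosolic aminotransferase GOT1 rose by 0.84 on the log2 scale (adjusted p = 0.0057) and the carrier SLC25A12 fell by 0.98 (adjusted p = 0.0027). The mitochondrial aminotransferase GOT2, with a log2 change of -0.20 (adjusted p = 0.164), and the carrier SLC25A11, with 0.30 (adjusted p = 0.0932), did not pass. ACLY, which splits exported citrate in the cytosol, rose by 0.62 (adjusted p = 0.0158). The remaining calls, named after their values were seen, were a rise of PCK1 by 0.78 and falls of GLS2 by 0.54 and of SLC25A13 by 0.45, which passed in 6 of 12, 4 of 12 and 7 of 13 alternatives. SLC25A13 is a carrier of the same shuttle as SLC25A12. It had 25.9 ± 0.48 FPKM with metformin and 36.2 ± 6.53 FPKM in basal libraries, where SLC25A12 had 7.98 ± 1.61 and 16.6 ± 1.59 FPKM. PCK1 and GLS2 were at low FPKM, and their log2 changes ran from 0.26 to 1.65 and from -0.77 to -0.23 over the alternatives.

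DLD also serves the branched-chain keto acid, glycine cleavage and oxoadipate complexes. Of 11 tested genes of these complexes and of lipoylation 1 rose and 2 fell, with a median log2 change of -0.12. The share called was 27.3%, beside 43.9% over all genes tested. AMT, of the glycine cleavage system, had a mean of 2.89 ± 1.73 FPKM with metformin and 18.7 ± 13.3 FPKM in basal libraries and fell by 2.20 on the log2 scale (adjusted p = 0.00437), with log2 changes from -2.60 to -1.45 over the alternatives, of which 12 of 13 passed. DHTKD1, the oxoadipate counterpart of OGDH, rose by 0.30 (adjusted p = 0.0472), and BCKDHA fell by 0.30 (adjusted p = 0.0497). Each of these last calls passed in 5 of 13 alternatives. BCKDHB (log2 change -0.0041, adjusted p = 0.981) and DBT (0.05, adjusted p = 0.689), of the same complex as BCKDHA, did not pass. GLDC, of the same system as AMT, did not pass either (0.25, adjusted p = 0.477). GCSH of that system was at 0 FPKM in every library and was not tested.

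**Figure D5:**
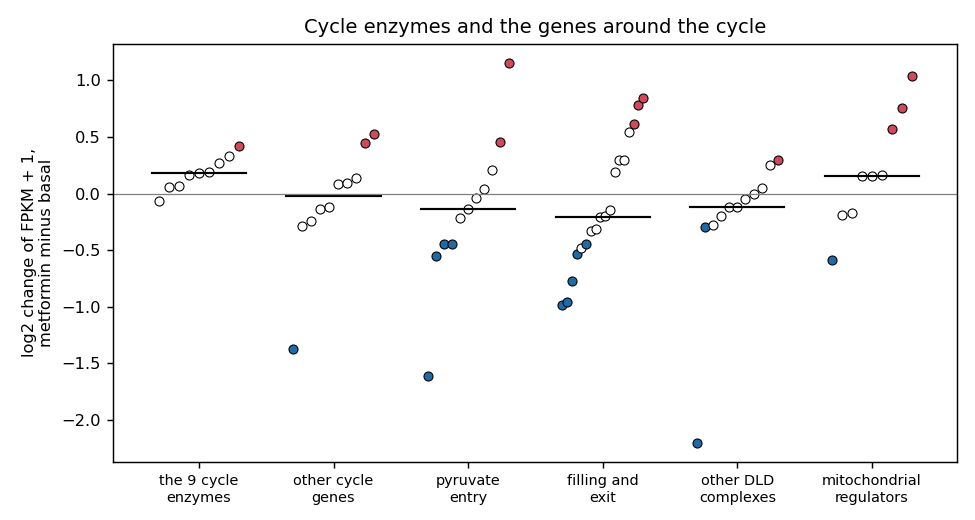
Log2 change of FPKM + 1, metformin minus basal (vertical axis), of every tested gene in 6 lists (horizontal axis), each point 1 gene. Red points rose and blue points fell at an adjusted p under 0.05, white points did not pass, and black lines are list medians; the 9 cycle enzymes lie between -0.07 and 0.42 with a median of 0.18.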

How the data were processed

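Per the submitters' processing notes, the authors made the FPKM values with Cufflinks on the sheep assembly Oar_v3.1. The sources used here name no aligner, annotation, strand setting or version, so reads shared with copies or overlapping genes cannot be told apart. The deposited table also holds group means computed by the authors, a fold change with a sign (a score, negative where metformin was lower), p-values per gene, and adjusted p-values (a score with 99 as a placeholder). A placeholder in 4 cells, of AHSG and WBP1L, was treated as missing.

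Genes were kept where 4 or more of 8 libraries reached an FPKM of 1, and tested with limma 3.58.1 in R 4.3.3 on log2(FPKM + 1), with preparation as a block, a variance trend and moderated variances, 2-sided. The numbers pair libraries of one preparation, per the labels. Deviations from group means correlated within each pair (r = 0.489 to 0.585). The fit was run on simulated data with few changed genes and with changes larger than those of the 9 genes, so that run does not bear on their calls. FPKM is relative to each library's total, and the depth in reads is unknown. Members and lists were chosen with earlier results of these data known. The genes named were the 9, the tested genes of a list of the rest of the cycle, from which 1 gene is left out and not reported here, and up to 5 called genes of each other list by lowest p. Alternatives were 2 pseudocounts, 2 filters, 2 scalings, no block, no trend, no moderation and each preparation left out.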

Additional observations from a re-analysis of the deposited data

Results flagged for a closer look

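Of 80 sets of 4 libraries examined (metformin or basal, for each named gene), 3 had a library at one end whose gap to its nearest neighbour exceeded Dixon's 95% critical share of the whole range, which chance gives in about 1 of 20. CS in the metformin library of preparation 1 had 97.4 FPKM, where the other 3 metformin libraries had 67.6 to 72.0 FPKM. IDH3G in the same library had 22.9 FPKM, where the others had 17.2 to 18.1 FPKM. ACLY in the metformin library of preparation 4 had 44.9 FPKM, where the others had 74.0 to 77.8 FPKM.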

How the results depend on the processing

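Over 13 alternatives, the log2 changes of CS, DLD, SUCLG1, FH and MDH1 stayed positive. Quantile normalization turned IDH2 to -0.025 and OGDH to -0.019. Over the preparations left out, IDH2 ran from -0.044 to 0.12, OGDH from -0.029 to 0.18 and IDH3A from -0.0044 to 0.34, each negative without preparation 2, while MDH2 ran from -0.14 to 0.036 and IDH3B from -0.23 to 0.0064, each positive without preparation 4, none past the threshold; the cause was not tested. The number of cycle enzymes called higher was 0 without a filter (DLD adjusted p = 0.0684, with 18836 genes tested), 0 without the replicate block, 0 with each gene's variance alone, and 2 with the median of ratios (DLD and FH); it ran from 0 to 1 over the preparations left out. Called genes in all were 1272 higher and 1246 lower without the block, 766 and 887 with each gene's variance alone, and 1679 to 2307 higher and 1995 to 2923 lower over the preparations left out. The calls of DLD, PDK4, PDK3, PDHX, PDPR, PC, ACLY, PCK1, GLS2, SLC25A13, DHTKD1, BCKDHA, SIRT3 and PPARGC1B ended without the block. Of the genes of the 5 lists around the cycle 11 were higher and 13 lower. The share called per list was 27.3% to 54.5%, beside 43.9% over all genes tested. The counts were 6 and 5 without the block and 2 and 2 with each gene's variance alone. Over the preparations left out they ran from 7 to 8 and from 6 to 12. Without a filter 8 were lower. Low FPKM and unknown depth limit genes such as GLS2 and PCK1.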

Other observations

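Regulators of mitochondrial gene expression, a list of 11 genes of which 9 were tested, had 3 rise and 1 fall, with a median log2 change of 0.15. The share called, 44.4%, is near the 43.9% over all genes tested. The coactivator PPARGC1A had a mean of 15.7 ± 6.30 FPKM with metformin and 6.84 ± 2.02 FPKM in basal libraries (SD, n = 4 each; log2 change 1.04, adjusted p = 0.00207). Its nuclear receptor partner ESRRA had 25.7 ± 5.15 FPKM with metformin and 14.6 ± 1.82 FPKM in basal libraries (log2 change 0.76, adjusted p = 0.0115). PPARGC1B rose by 0.57 and the mitochondrial deacetylase SIRT3 fell by 0.59 on the log2 scale, each at a low level and each passing in 6 of 12 alternatives, over which the log2 changes ran from 0.23 to 0.90 and from -0.79 to -0.29. The mitochondrial DNA factor TFAM (log2 change 0.15, adjusted p = 0.388) and NRF1 (0.15, adjusted p = 0.359) did not pass.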
